A study of Homo sapiens with 20 samples.

Results

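The interferon-stimulated antiviral genes were followed in 5 established triple-negative breast cancer (TNBC) cell lines, with and without wound-healing fluid (WHF), the fluid that a drain collects after breast tumor surgery. The genes were given by symbol in a list of 51. A probe of the array entered where its annotated symbol was on that list and its detection p-value, the share of negative control beads at least as bright, was under 0.05 on at least 2 of the 20 arrays. Of the 51 genes, 50 had an annotated probe and 1 was not analysed here. The 50 genes had 74 probes, and 71 of them passed the filter, so that none of the 50 genes was lost. The 3 probes that did not pass were further probes of OAS1, UBE2L6 and IRF7. The genes thus make up 50 of the 15059 genes and 71 of the 29551 probes tested. For the 14 genes with more than 1 passing probe, gene counts use the probe detected on most arrays and, at a tie, the one with the highest mean. By these probes, 32 of the 50 genes were detected on all 20 arrays, and 7 were detected on none of the 4 arrays of at least 1 line.

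Type I and type III interferons bind receptors at the cell surface, and JAK kinases then activate a complex of STAT proteins with IRF9, which binds the interferon-stimulated response element in the promoters of its target genes. The targets hinder viruses at entry, in RNA translation, in replication and at release, and some of them, such as the RNA sensor RIG-I and the factor IRF7, feed back on interferon production. Tumor cells can express these genes at a steady level with no virus present.

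Each line was grown as 2 cultures with WHF and 2 without, labelled replicates A and B, which gives 10 groups of 2 arrays. All cells were starved of serum for 24 h. The WHF groups then received medium with 5% of a pool of fluids from breast cancer patients, 5 of them pooled for each experiment, for 48 h, and the untreated groups did not. The study counts MDA-MB-231, BT549 and MDA-MB-157 as mesenchymal-like lines and the remaining lines, SUM149 and MDA-MB-468, as basal-like. Every group is 1 line and the fluid is a mixture of several people's. By the study's methods, treated and untreated cells of a line were paired within a preparation and the 5 lines were prepared a further time independently, while the labels call A and B independent without saying which preparation or pool a letter stands for. P-values for single lines and for differences between lines measure the spread between these cultures, pooled over the 10 groups and not taken from 1 line. Those for the response over the 5 lines measure how that response varies between the lines. By the array barcodes, MDA-MB-231 was run on 1 chip, MDA-MB-468 and SUM149 on another, and BT549 and MDA-MB-157 on the last of 3. WHF and untreated cells of a line were therefore compared within a chip, whereas chip and line cannot be told apart between lines of different chips.

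Values are log2 levels, that is, bead signals after background correction and quantile normalization, and levels are set only against levels of the same probe. The arrays detected 19693 to 22456 probes in WHF groups and 20793 to 22865 in untreated groups, and for 20 of 20 arrays the most similar array was of the same group. E-cadherin RNA (CDH1) was above background on every array of both basal-like lines, on 1 of the 4 arrays of MDA-MB-157 and on no other array. Of the receptors that define the triple-negative label by their absence as proteins, ERBB2 RNA was detected on all 20 arrays, ESR1 on all arrays of MDA-MB-468 and SUM149 and PGR on all arrays of MDA-MB-157. The study centrifuged the WHF and passed the medium holding it through a fine filter before use, steps that remove cells. To check for leukocyte RNA, 11 markers were examined. PTPRC, CD3D, CD3E and NKG7 were each detected on fewer than 2 arrays. The others were detected on more: LYZ and ITGAM on 5, MS4A1 on 9, CD2 on 13, CD79A and CSF1R on 15 and FCGR3A on 20. CSF1R was called lower with WHF in MDA-MB-231 (−1.57) and higher in MDA-MB-468 (1.06). On any array, 2 to 5 of the 11 markers were detected in both kinds of group. The summed bead signal of the markers ranged from 490 to 685 in untreated and from 523 to 763 in WHF arrays.

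One group stood apart in these genes. In untreated BT549, replicate B was above replicate A in 48 of the 50 genes, with a median difference of 0.73, whereas 49.8% of all genes were higher in B. In untreated SUM149 the opposite order was found, with B above A in 11 of 50 genes and a median difference of −0.27. The median absolute difference between replicates was 0.77 in untreated BT549 and 0.16 to 0.30 in the other untreated groups. As each gene's SE is pooled over the groups, p-values for BT549 do not measure the wider spread of its own untreated cultures.

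The promoter shows what many of these genes share. For 42 of the 51 named genes, 41 of them measured, RefSeq (GRCh38.p14) gave the 250 bases before the start of transcription. The core of the response element, which is GAAA, any 2 bases and GAAA, searched on both strands (TTTC, any 2 bases and TTTC on the other), was found in 23 of the 42, which is 54.8%, against 3.07% of all 27305 promoters in the table. The gamma-activated site, TTC, any 3 bases and GAA, which reads alike on both strands and is the motif of interferon-gamma signaling, was found in 8, which is 19.0% against 6.78% of all promoters. Both motifs were found in 5 genes, and their matches overlapped in 3. A match describes letters only and was not tested as a site. Stretches of 8 promoters are shown, with the core in capitals, because these genes show the responses described below: genes that fell in most lines (IFIT1, IFIT3, IFI44, SAMD9), a gene that fell in BT549 alone (ISG15), a gene that fell in MDA-MB-468 (HERC5) and the 2 genes that rose in a line (ISG20, TNFSF10). Each is written in the direction of transcription.
IFIT1, chr10:89392485-89392564, + strand: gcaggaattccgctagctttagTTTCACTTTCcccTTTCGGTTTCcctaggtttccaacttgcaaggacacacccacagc
IFIT3, chr10:89327840-89327919, + strand: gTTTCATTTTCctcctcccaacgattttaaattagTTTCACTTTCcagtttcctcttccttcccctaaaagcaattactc
IFI44, chr1:78649736-78649788, + strand: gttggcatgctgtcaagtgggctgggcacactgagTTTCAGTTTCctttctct
SAMD9, chr7:93118071-93118150, − strand: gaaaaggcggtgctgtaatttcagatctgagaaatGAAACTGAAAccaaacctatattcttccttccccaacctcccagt
ISG15, chr1:1013355-1013434, + strand: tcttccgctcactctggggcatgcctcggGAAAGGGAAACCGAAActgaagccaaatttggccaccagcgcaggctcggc
HERC5, chr4:88457010-88457089, + strand: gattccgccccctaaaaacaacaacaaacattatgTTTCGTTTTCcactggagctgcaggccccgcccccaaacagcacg
ISG20, chr15:88638912-88638991, + strand: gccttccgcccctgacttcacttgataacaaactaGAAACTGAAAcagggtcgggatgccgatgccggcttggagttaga
TNFSF10, chr3:172523573-172523652, − strand: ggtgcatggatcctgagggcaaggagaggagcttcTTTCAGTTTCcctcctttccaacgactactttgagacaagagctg
In ISG15 2 matches overlap each other, and in IFIT1 and IFIT3 2 separate matches lie in the stretch shown. The core was present in genes that fell and in genes that did not. In BT549, 19 of the 23 genes with the core fell, with a median change of −1.62, and 14 of the 18 measured genes without it fell, with a median of −1.92.

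Without WHF, the lines differed in the level of nearly all of these genes. By limma's F test over the 5 untreated groups, with Benjamini-Hochberg adjustment over all probes at 0.1, 49 of 50 genes differed between lines, against 86.0% of all genes. BT549 had the highest level in 31 of the 50 genes, against 20.6% of all genes, and MDA-MB-157 the second highest in 25. MDA-MB-468 was lowest in 19, SUM149 in 15 and MDA-MB-231 in 11. Set against each gene's mean over the 5 lines, the median deviation was 1.23 in BT549, 0.52 in MDA-MB-157, −0.18 in MDA-MB-231, −0.58 in SUM149 and −0.75 in MDA-MB-468. The order of the first 3 was found in each replicate, with 1.01 and 1.54 in replicates A and B of BT549 and 0.65 and 0.50 in those of MDA-MB-157. MDA-MB-468 and SUM149 were close, with −0.72 and −0.83 in the former and −0.45 and −0.70 in the latter.

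EPSTI1, an interferon-induced gene first described at the border of epithelium and stroma, had the largest F among the genes (344, adjusted p = 2.43e-13 by limma). Its untreated levels were 12.01 and 12.89 in BT549, 10.75 and 10.34 in MDA-MB-157 and 7.64 and 7.52 in MDA-MB-231, and it was not above background in MDA-MB-468 and SUM149. The 3 mesenchymal-like lines were thus separated from each other and from both basal-like lines. IFI27, which encodes a small mitochondrial protein, followed another order, with 13.44 and 13.82 in MDA-MB-231, 13.82 and 13.44 in SUM149, 11.86 and 13.19 in BT549 and 9.78 and 9.69 in MDA-MB-157. It was not above background in MDA-MB-468 and was at least 263-fold higher in SUM149, which shared its chip. Such bounds set the mean of the brighter group against, on each array of the dim group, the higher of the lowest level among detected probes and the probe's own level. TNFSF10, the gene of the death ligand TRAIL, was not above background in BT549, the line with the highest level of most members, and was at least 14.8-fold higher in MDA-MB-157, which was run with it. TRIM22, which encodes an antiviral ubiquitin ligase, was not above background in BT549 and SUM149 either.

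Within the shared chips, at more than 2-fold, 16 of 50 genes were higher and 4 lower in untreated BT549 than in MDA-MB-157, against 13.5% and 14.4% of all genes. The 4 lower were TNFSF10, TRIM22, HERC6 and LGALS3BP, and those higher included IFITM1 (2.74 ± 0.228, SE), OASL (2.94 ± 0.402) and IRF7 (2.09 ± 0.242). In untreated MDA-MB-468, 5 genes were higher and 12 lower than in SUM149, against 14.3% and 13.0% of all genes. MX1, the gene of a GTPase that traps viral nucleocapsids, was 1.29 ± 0.390 higher in MDA-MB-468, and BST2, the gene of the virion tether tetherin, differed by −4.32 ± 0.228. The count higher in BT549 became 26 without untreated replicate A of BT549, the replicate with the lower levels.

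**Figure D1:**
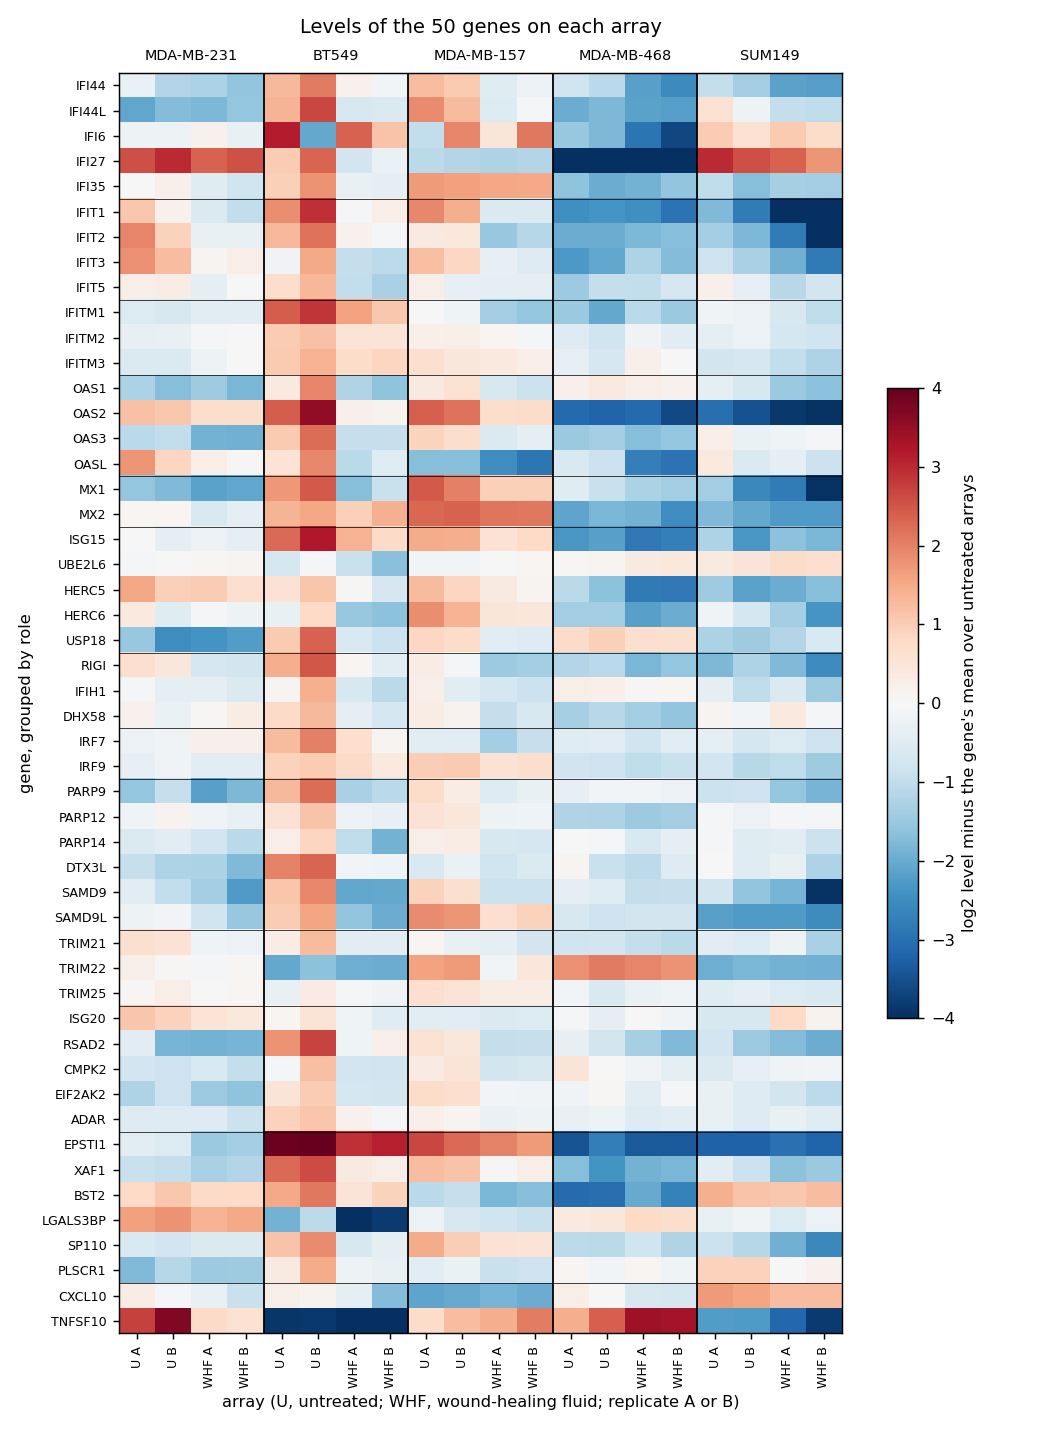
The log2 level of each of the 50 genes on each of the 20 arrays (columns, by line, then untreated A and B and WHF A and B), minus the gene's mean over the 10 untreated arrays. Rows are grouped by role, colours run from −4 to 4, and the darkest red columns are the untreated arrays of BT549, with B above A in 48 of 50 genes.

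With WHF, most of these genes were lower, and by how much depended on the line. Over the 5 lines, tested on the mean of A and B with the line as a block, 48 of 50 genes had a change below 0, the median was −0.66, and the median of all genes was −0.02. By limma, 0 of the 50 passed an adjusted p of 0.1 in either direction, against 0.0465% of all genes lower and 0.0133% higher. At an unadjusted p under 0.05, 31 were lower and 0 higher, against 10.1% and 7.09% of all genes. The change was below 0 in all 5 lines for 21 of the 50 genes, against 8.52% of all genes. The count called over the lines was 3 without MDA-MB-468, the line with the smallest changes.

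In single lines, tested against the spread of the 10 groups at an adjusted p under 0.1 and more than 2-fold, BT549 stood first with 39 of 50 genes lower and 0 higher, against 6.18% and 4.20% of all genes. MDA-MB-157 followed with 20 lower and 0 higher, against 1.93% and 0.996%. In SUM149, 10 were lower and 1 higher, against 6.61% and 3.61%, and in MDA-MB-231 6 were lower and 0 higher, against 3.98% and 2.32%. In MDA-MB-468, 3 were lower and 1 higher, against 0.963% and 1.10%. Counted over the 71 probes, 56 were lower in BT549, 28 in MDA-MB-157, 17 in SUM149, 10 in MDA-MB-231 and 3 in MDA-MB-468, against 5.14%, 1.52%, 5.24%, 3.15% and 0.738% of all probes. The count in BT549 includes a further probe of OAS3 (−2.02) that was detected on 2 arrays only, both untreated BT549. It passed the filter only through the group where it was high, so its direction there is no evidence of a fall. The probes that were higher were 1 in SUM149 and 1 in MDA-MB-468, against 3.71% and 0.870%, and 0 in BT549, MDA-MB-157 and MDA-MB-231, against 3.86%, 0.856% and 2.40%. The medians over the 50 genes were −1.66 in BT549, −0.81 in MDA-MB-157, −0.40 in SUM149, −0.36 in MDA-MB-231 and −0.19 in MDA-MB-468. Replicates A and B gave medians of −1.12 and −2.20 in BT549, −0.91 and −0.71 in MDA-MB-157, −0.42 and −0.41 in SUM149, −0.38 and −0.29 in MDA-MB-231 and −0.15 and −0.16 in MDA-MB-468. The difference between the replicates of BT549 lay in the untreated cells, where the median level was 10.37 in A and 11.17 in B, and less in the WHF cells, where it was 8.76 and 8.93.

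Both WHF arrays were below both untreated arrays in 46 of 50 genes in BT549, against 32.4% of all genes, and in 45 of 50 in MDA-MB-157, against 27.5%. The same held for 29 in MDA-MB-231 (30.5% of all genes), 26 in SUM149 (30.9%) and 23 in MDA-MB-468 (27.4%). Both WHF arrays were above both untreated arrays in 8 genes in MDA-MB-468 (25.8% of all genes), among them IFIT2, IFIT3, IFITM2, IFITM3 and BST2, and in 0 genes in BT549 (29.2%). Some counts of called genes moved with single arrays. Without WHF replicate A of MDA-MB-157 its count of lower genes was 7, and 10, 13 and 12 without untreated A, untreated B and WHF B. In SUM149 it was 4 without WHF replicate B and 5 without untreated replicate A. In MDA-MB-231 it was 3 without WHF replicate B, and in MDA-MB-468 it was 1 without untreated replicate A.

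**Figure D2:**
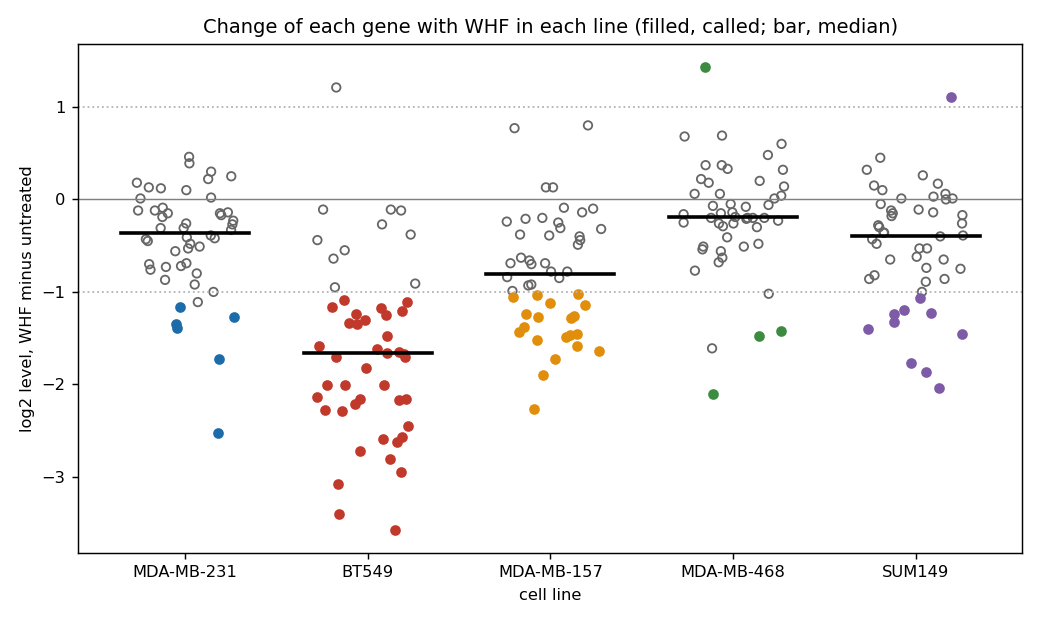
The change of each of the 50 genes in each line, as log2 level with WHF minus untreated, means of 2 arrays each. Filled points passed the test at more than 2-fold (dotted lines at −1 and 1), open points did not, and the bars are medians, from −1.66 in BT549 to −0.19 in MDA-MB-468.

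Of the 50 genes, 41 fell in at least 1 line (14.7% of all genes), 11 in 3 or more (1.04% of all genes) and 3 in 4 (0.113% of all genes), and none fell in all 5. The largest set, 17 genes, fell in BT549 alone (3.28% of all genes), and 9 fell in BT549 and MDA-MB-157 alone (0.325%), among them OAS2, OAS3, USP18 and XAF1. By its other probe, XAF1 fell in BT549 and SUM149 and was not called in MDA-MB-157. A gene that fell is one called at an adjusted p under 0.1 and more than 2-fold. Some of the 17 were also lower in another line at that adjusted p but short of 2-fold, as PARP9, PARP12, EIF2AK2 and IFIT5. A call in 1 line and none in another does not test the difference between them, which is given further on. The 9 genes called lower in no line were IFI6, IFITM2, IFITM3, MX2, UBE2L6, IRF9, TRIM25, ISG20 and ADAR, of which ISG20 rose in SUM149. Some of these 9 passed the adjusted p but not 2-fold, as ADAR and UBE2L6 in BT549 (−0.95 and −0.91).

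The 3 genes that fell in 4 lines were IFIT1, IFIT2 and IFIT3, whose proteins bind foreign viral RNA. IFIT1 had untreated levels of 12.25 and 13.34 in BT549, 12.32 and 11.87 in MDA-MB-157 and 11.47 and 10.57 in MDA-MB-231. With WHF these were 10.36 and 10.67, 9.81 and 9.84, and 9.84 and 9.42. The treated and untreated arrays did not overlap in any of these lines. In SUM149 the levels were 8.63 and 7.60 untreated and 6.36 and 5.78 with WHF, where only 1 of the 2 WHF arrays was above background. The falls in BT549, MDA-MB-157 and SUM149 were 4.87-fold, 4.83-fold and 4.12-fold (log2 −2.28, −2.27 and −2.04, SE 0.384 each, adjusted p = 0.000503, 0.00210 and 0.00138 by limma). In MDA-MB-231 the change was −1.39 (adjusted p = 0.0241), a call lost without untreated A or WHF B, and in MDA-MB-468, with 7.94 and 8.04 untreated and 7.95 and 7.45 with WHF, it was −0.30 and not called.

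IFIT2 had the same set of calls, with changes of −1.73 in MDA-MB-231, −1.67 in BT549, −1.72 in MDA-MB-157 and −1.87 in SUM149 (SE 0.378 each). Replicates A and B gave −1.13 and −2.20 in BT549 and −1.43 and −2.32 in SUM149, and the call in MDA-MB-157 was lost without WHF A. In MDA-MB-468 its levels were 7.92 and 7.91 untreated and 8.09 and 8.19 with WHF, a change of 0.22 that was not called. IFIT3 had changes between −1.32 and −1.70 in the 4 lines and 0.69 in MDA-MB-468. IFIT5 was called in BT549 alone (−2.16 ± 0.267), and its change of −0.86 in SUM149 passed the adjusted p but not 2-fold. A further IFIT1 probe fell in MDA-MB-231, BT549 and MDA-MB-157 but had a change of 0.62 in SUM149, where it was above background on 1 of 2 untreated arrays, so that the fall in SUM149 rests on 1 probe.

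In the group of IFI44 and the small IFI proteins, 4 of 5 genes fell in BT549, 2 in MDA-MB-157 and 1 each in MDA-MB-468 and SUM149. IFI44, the gene of a microtubule-associated antiviral protein, had the largest moderated t over the lines among all 50 genes (change −1.25 ± 0.162, adjusted p = 0.119 by limma) and was lower in 5 of 5 lines. Its levels were 12.55 and 13.35 untreated and 11.43 and 11.15 with WHF in BT549, 12.49 and 12.30 and then 10.78 and 11.02 in MDA-MB-157, and 10.47 and 10.19 and then 9.10 and 8.71 in MDA-MB-468. In these 3 lines it fell 3.15-fold, 2.82-fold and 2.68-fold, the last not without untreated A or WHF B of MDA-MB-468. In SUM149 it went from 10.32 and 9.87 to 9.13 and 9.06, a 1.99-fold change that missed the fold threshold (adjusted p = 0.0240), and in MDA-MB-231 from 10.99 and 10.09 to 10.01 and 9.68 (−0.69, not called). Its neighbour and paralog IFI44L fell in BT549 (−2.62), MDA-MB-157 (−1.90) and SUM149 (−1.20, SE 0.339 each), with changes of 0.25 in MDA-MB-231 and −0.29 in MDA-MB-468. Its replicates A and B gave −2.0 and −3.25 in BT549. The call in SUM149 was lost without untreated A and with either other signal treatment, which were the authors' normalized intensities and no background correction.

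For IFI6, which encodes a survival factor of the mitochondrion and endoplasmic reticulum, the 2 probes disagreed. The probe used for counts had untreated levels of 14.03 and 8.83 in replicates A and B of BT549 and of 9.92 and 12.84 in those of MDA-MB-157, the largest SE of all members (1.14) and no call in any line. The other probe fell in BT549 (−2.12), where ISG15, IFI27 and IFI35 fell too. IFI6 therefore has no settled change here. IFI27 fell in BT549 from 11.86 and 13.19 to 10.13 and 10.57 (−2.17 ± 0.316) and had changes between −0.06 and −0.74 in the other lines.

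The IFITM proteins, which block fusion of viruses with membranes, had 1 of 3 genes called in BT549 and in MDA-MB-157 and none in the other lines. IFITM2 and IFITM3 were called in no line, with changes from −0.55 to 0.60. IFITM1 fell in BT549 from 13.91 and 14.32 to 13.07 and 12.56 (−1.30 ± 0.228) and in MDA-MB-157 from 11.45 and 11.31 to 10.08 and 9.92 (−1.38). Its changes were −0.65 in SUM149, 0.18 in MDA-MB-231 and 0.48 in MDA-MB-468, none of them called.

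All 4 genes of the OAS family, the sensors of double-stranded RNA that activate RNase L and the related OASL, fell in BT549, where the family median was −2.58. In MDA-MB-157 3 of 4 fell. OASL was the family member with a call in MDA-MB-468. Its levels there were 7.40 and 7.14 untreated and not above background with WHF, at least 3.18-fold lower (log2 −2.10 ± 0.402, adjusted p = 0.00761 by limma). It fell in BT549 from 8.55 and 9.94 to 6.95 and 7.52 and in MDA-MB-231 from 9.79 and 8.86 to 8.28 and 8.05, 4.03-fold and 2.23-fold. The call in MDA-MB-231 was lost when either WHF array or untreated replicate A was left out, and with either other signal treatment. A further OASL probe fell in BT549 (−1.42) but was not called in MDA-MB-468 (−0.86) or MDA-MB-231 (−0.97). The calls in those lines thus rest on 1 probe. In SUM149 OASL was 8.40 and 7.45 without and 7.63 and 7.16 with WHF, and the groups overlapped. OAS1 fell in BT549, MDA-MB-157 and SUM149 by the probe used, whereas 1 of its other probes fell in SUM149 alone, with −0.02 in BT549, and another fell also in MDA-MB-231, at least 1.55-fold, being below background there with WHF.

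MX1 showed a large fall in BT549, from 13.80 and 14.51 to 10.35 and 11.17, which is 10.5-fold (log2 −3.40 ± 0.390, adjusted p = 1.78e-05 by limma). In SUM149 it went from 10.67 and 9.50 to 9.26 and 8.10 (−1.40, adjusted p = 0.0185) and in MDA-MB-157 from 14.51 and 14.09 to 13.03 and 13.03 (−1.27, adjusted p = 0.0777). In SUM149 each replicate was lower with WHF, but WHF A was close to untreated B, and the call was lost without untreated A or WHF B. The call in MDA-MB-157 was lost on leaving out any 1 of its 4 arrays, as were those of HERC6, SAMD9 and RSAD2. MX2 was called in no line, with changes from −0.20 to −0.56.

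ISG15 is a ubiquitin-like protein, UBE2L6 its conjugating enzyme, HERC5 its ligase, HERC6 a relative of HERC5, and USP18 the protease that removes it and dampens receptor signaling. In BT549 4 of these 5 genes fell, with a median of −1.65. ISG15 fell there from 14.35 and 15.29 to 13.47 and 12.86 (−1.65 ± 0.318) and was called in no other line. UBE2L6 was called in no line and was the family member with a change above 0 in 4 of 5 lines, from 0.12 to 0.32. In BT549 it was lower by 0.91, short of 2-fold (adjusted p = 0.00799 by limma). HERC5 fell in MDA-MB-468 from 9.39 and 8.81 to 7.64 and 7.59 (−1.48 ± 0.306, adjusted p = 0.0132 by limma), not without replicate A of either group, and in BT549 (−1.16), not without replicate B of either group. In SUM149 its levels of 9.03 and 8.32 without and 8.48 and 8.77 with WHF overlapped. HERC6 fell in BT549 (−1.82), SUM149 (−1.46) and MDA-MB-157 (−1.14), and its call in SUM149 was lost without WHF B and with either other signal treatment. USP18 fell in BT549 (−2.45 ± 0.335) and MDA-MB-157 (−1.26).

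The cytosolic RNA sensors RIG-I (RIGI), MDA5 (IFIH1) and LGP2 (DHX58) all fell in BT549. RIGI went there from 9.67 and 10.69 to 8.27 and 7.76 (4.48-fold, adjusted p = 0.000113 by limma). It fell from 8.49 and 8.12 to 6.76 and 6.80 in MDA-MB-157 and from 8.87 and 8.66 to 7.52 and 7.48 in MDA-MB-231, 2.87-fold and 2.41-fold, and both of these calls were lost with either other signal treatment. In MDA-MB-468 (−0.56) and SUM149 (−0.62) it was not called. Of the factors that drive the program, IRF7 fell in BT549 alone (−1.25 ± 0.242). IRF9 was called in no line, although it was lower in 5 of 5. Its levels were 12.15 and 12.27 untreated and 12.02 and 11.63 with WHF in BT549, and its changes ranged only from −0.14 to −0.38, with the smallest F for a difference in response between lines (0.363).

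The PARP, DTX3L and SAMD9 genes had the deepest family median in BT549 (−2.62) and fell there in 6 of 6. SAMD9, which encodes a restriction factor of poxviruses, had the deepest single fall of all 50 genes. Its levels in BT549 were 10.89 and 11.72 untreated and 7.71 and 7.75 with WHF, 11.9-fold lower (log2 −3.57 ± 0.489, adjusted p = 8.74e-05 by limma). In MDA-MB-157 they were 10.72 and 10.42 and then 8.92 and 8.95 (−1.64, adjusted p = 0.0699). In SUM149 they were 9.06 and 8.23 and then 7.93 and 5.83, where the second WHF array was not above background (−1.77, adjusted p = 0.0179), a call lost without untreated A or WHF B. Changes of −1.11 in MDA-MB-231 and −0.51 in MDA-MB-468 were not called. Its neighbour SAMD9L fell in BT549 from 8.68 and 9.24 to 6.07 and 5.68 (−3.08 ± 0.229) and in MDA-MB-157 from 9.54 and 9.42 to 8.34 and 8.58 (−1.02), the latter call being lost without either A array and with either other signal treatment. In MDA-MB-468 it was 7.01 and 6.83 untreated and 6.92 and 6.94 with WHF, and in SUM149 it was not above background. PARP9 and its partner DTX3L fell in BT549 alone (−2.95 and −2.29).

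Among the TRIM ubiquitin ligases, TRIM22 fell in MDA-MB-157 alone, from 8.25 and 8.34 to 6.55 and 7.11 (−1.46 ± 0.189, adjusted p = 0.000228 by limma). MDA-MB-468 had a similar untreated level, 8.49 and 8.73, and there the levels with WHF were 8.62 and 8.46. TRIM21, an antibody receptor inside the cell, fell in BT549 from 8.22 and 9.20 to 7.50 and 7.50 (−1.21), a call lost without untreated B and with either other signal treatment. TRIM25, which ubiquitinates RIG-I, was called in no line.

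Of the enzymes that act on RNA and nucleotides, RSAD2 (viperin), CMPK2 and EIF2AK2 (the kinase PKR) fell in BT549. RSAD2 went from 8.70 and 9.59 to 6.71 and 7.17 in BT549 and from 7.49 and 7.35 to 5.94 and 5.96 in MDA-MB-157, 4.62-fold and 2.77-fold, the latter call being lost also with either other signal treatment. In the other lines it was not above background with WHF. CMPK2, which lies next to RSAD2, was not above background with WHF in BT549 and MDA-MB-157, at least 1.58-fold and 1.60-fold lower. ISG20, the gene of an RNA exonuclease, rose in SUM149 from 9.08 and 9.09 to 10.52 and 9.87 (1.11 ± 0.210, adjusted p = 0.00146 by limma). Its changes elsewhere ranged from −0.64 to 0.18. The rise was not called without WHF replicate A of SUM149 or with either other signal treatment.

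In the remaining effectors, 6 of 6 genes fell in BT549. LGALS3BP, a secreted glycoprotein gene, fell there from 8.68 and 9.52 to 6.0 and 6.75 (−2.72 ± 0.258) and had changes from −0.40 to 0.33 in the other lines. SP110, a nuclear body gene, fell in BT549 (−2.01) and SUM149 (−1.24), in SUM149 by 3 of its 4 probes, the fourth being at 0.75. EPSTI1 fell in BT549 from 12.01 and 12.89 to 11.01 and 11.19 (−1.35), not without untreated B. XAF1 fell in BT549 (−2.14) and MDA-MB-157 (−1.05) by the probe used, and its change of −0.89 in SUM149 passed the adjusted p but not 2-fold. Its other probe fell in BT549 (−2.22) and SUM149 (−1.51) and was not called in MDA-MB-157 (−0.99). BST2 had levels of 12.75 and 13.33 and then 11.74 and 12.15 in BT549 (−1.09) and a change of 0.68 in MDA-MB-468 that was not called.

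The secreted and death ligands followed no common order. TNFSF10 in MDA-MB-231 fell from 11.28 and 12.27 to 9.31 and 9.17, 5.79-fold (log2 −2.53 ± 0.332, adjusted p = 0.000131 by limma). In MDA-MB-468 it rose from 10.01 and 10.96 to 11.94 and 11.88, 2.69-fold (1.43, adjusted p = 0.0253), a call lost when untreated replicate A or either WHF array was left out. In SUM149 it was 6.31 and 6.28 untreated and not above background with WHF, at least 1.43-fold lower (a call lost without WHF B and with either other signal treatment), and in MDA-MB-157 it was 9.28 and 9.79 and then 10.00 and 10.61 (0.77, not called). CXCL10, which attracts T cells, fell in BT549 from 7.65 and 7.54 to 7.04 and 5.68, where the second was not above background (−1.24 ± 0.305, adjusted p = 0.00825), a call lost without WHF B and with either other signal treatment. It was highest in SUM149, at 9.12 and 8.98 untreated and 8.65 and 8.65 with WHF (−0.40, not called).

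**Figure D3:**
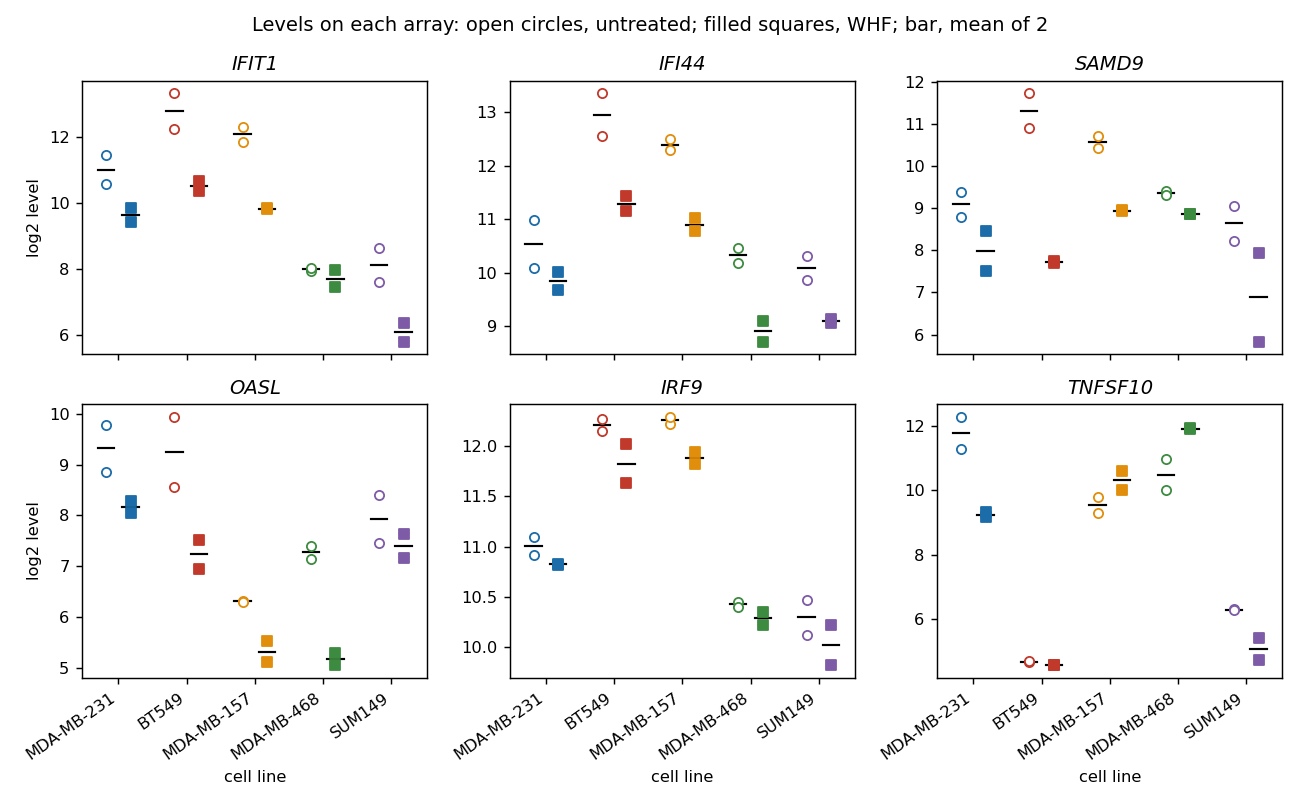
The log2 level of 6 genes on each array, by line, with untreated (open circles) and WHF (filled squares) and the mean of 2 (bar). IFIT1 was lower by 2.28 in BT549 and 0.30 in MDA-MB-468, IRF9 changed by 0.38 at most, and TNFSF10 fell in MDA-MB-231 and rose in MDA-MB-468.

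The difference between lines was tested directly, by limma's F test for unequal responses to WHF. Of the 50 genes, 40 responded differently between the lines at an adjusted p under 0.1, against 39.8% of all genes. SAMD9L had the largest F (28.8, adjusted p = 5.83e-05), followed by TNFSF10 (22.7), LGALS3BP (21.4) and XAF1 (17.7). Among the 10 without a call were IFI44 (1.86, adjusted p = 0.302), OASL (2.85, adjusted p = 0.146), RSAD2, CXCL10, IFIH1, MX2, IRF9 and TRIM25. Leaving out single arrays gave 31 to 45 genes.

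Whether the fall follows the level without WHF was described per gene over the 5 lines. As level and change share the error of the untreated array, the level was taken from one replicate and the change from the other. With the level from A and the change from B, the slope of change on level was below 0 in 44 of the 50 genes (median slope −0.36), against 57.4% of all genes. With the level from B and the change from A it was below 0 in 45 (median −0.26), against 56.3%. The line with the highest level was the line with the deepest fall in 22 and 24 of 50 genes, against 25.3% and 25.5% of all genes. With BT549 left out, an alternative chosen after the values were seen, slopes below 0 numbered 38 and 41. The share of all genes was not computed without BT549, so these counts have nothing to be set against. The points of a gene share chips, since 2 pairs of lines were run together, and no test was made.

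Within the shared chips, level and fall were compared between the lines of each pair. Between BT549 and MDA-MB-157, the line with the higher untreated level in 1 replicate had the deeper fall in the other in 31 of 50 genes in both versions, against 54.4% and 53.3% of all genes. Between MDA-MB-468 and SUM149 this held in 26 of 50 in both versions, or 52.0%, against 51.9% and 51.7%. The share in the former pair, 62.0%, was thus not far above that of all genes, and in the latter pair the shares were alike. The difference between the pairs was not tested. Across genes within a line, which is another question, Spearman's rho between level A and change B was −0.122 in BT549 (48 genes), −0.353 in MDA-MB-157 (50), −0.299 in MDA-MB-231 (49), 0.130 in MDA-MB-468 (47) and 0.231 in SUM149 (45). With level B and change A it was −0.539, −0.302, −0.181, 0.0274 and 0.327. Over all genes above background the values in the same order of lines were −0.193, −0.175, 0.00279, −0.134 and −0.00802 in the former version and −0.154, −0.190, 0.0248, −0.0933 and −0.00670 in the latter, so that in BT549 the genes' rho was below that of all genes in 1 version and above it in the other. These are descriptions across genes, which are not independent replicates and are measured by probes of different brightness.

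**Figure D4:**
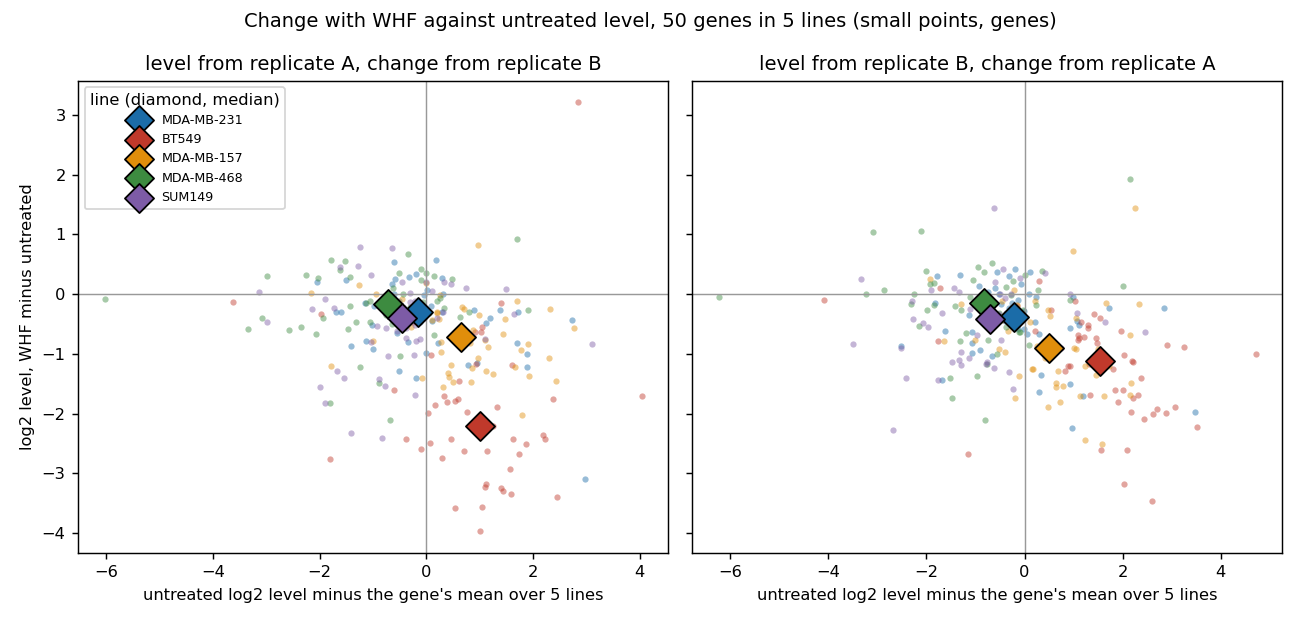
Each small point is a gene in a line, with its untreated log2 level minus the gene's mean over the 5 lines on the x axis and its change with WHF on the y axis, from opposite replicates, and diamonds are medians per line. BT549 and MDA-MB-157 lie to the right and lower, with medians of 1.01 and −2.20 for BT549 in the left panel, and the other 3 lines lie close together near a change of −0.15 to −0.42.

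After WHF the lines stood closer together. The range over the 5 lines was smaller with WHF than without in 42 of the 50 genes (84.0%), against 44.2% of all genes. Its median went from 3.03 to 2.10, whereas over all genes it was 1.40 and 1.52. The median deviation of BT549 from the gene mean was 1.23 without and 0.18 with WHF, and MDA-MB-157 was then the line with the highest, 0.32. MDA-MB-231 moved from −0.18 to 0.09, MDA-MB-468 from −0.75 to −0.29 and SUM149 from −0.58 to −0.50. The ranges that widened most were those of IFI6, from 2.48 to 5.02 by the probe with discordant replicates, and of LGALS3BP, which was lowest in BT549 before and fell there alone.

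**Figure D5:**
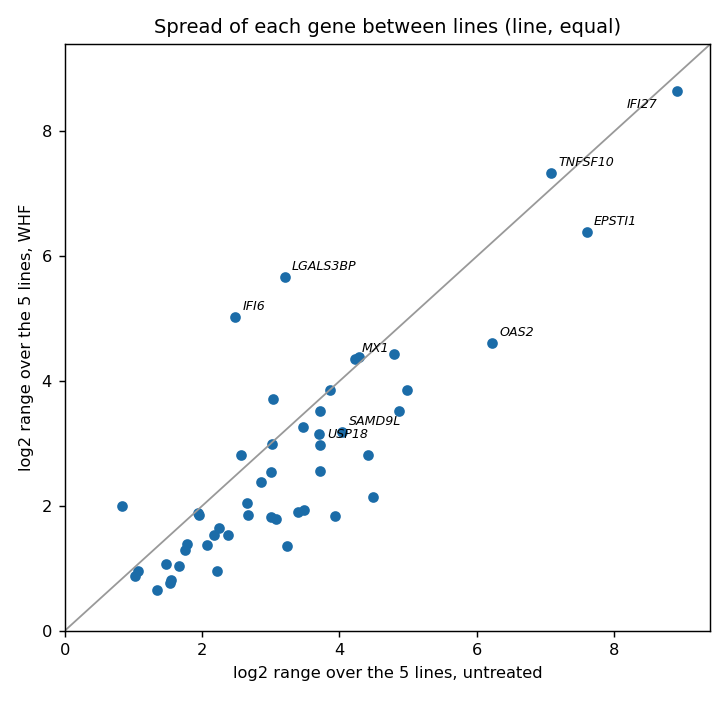
The range of each gene's mean log2 level over the 5 lines, untreated (x axis) and with WHF (y axis), 1 point per gene, with the line of equality. In 42 of the 50 genes the point lies below the line.

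Of the genes upstream in the pathway, a minority passed the test in a line. Of all genes, from 0.963% to 6.61% were called lower and from 0.996% to 4.20% higher, depending on the line. Of 21 interferon ligand genes with a probe, 18 were not detected on 2 arrays. IFNA21 and IFNW1 were each detected on 9 arrays, scattered over all 5 lines and both kinds of group. Their group means were 5.31 to 5.85, and they were called in no line. IFNB1, the gene of interferon beta, was detected on 2 arrays, untreated replicate B and WHF replicate A of BT549, with levels of 5.35 and 6.96 untreated and 5.70 and 5.22 with WHF in that line. Its probe was thus brightest in the same BT549 culture in which 48 of the 50 genes were above the other replicate, and its part in their level was not tested. Of 6 receptor genes, IFNAR1 fell in MDA-MB-231 (−1.14 ± 0.296) and SUM149 (−1.45), and the others were called in no line. Of 8 JAK and IRF genes, 1 was called, IRF1, which rose in BT549 from 11.28 and 11.53 to 13.64 and 12.79 (1.81 ± 0.242, adjusted p = 7.07e-05 by limma) while 39 of the 50 antiviral genes fell there. Of 9 sensor adaptors and kinases, STING1, the adaptor of DNA sensing, fell in BT549 from 11.17 and 11.24 to 9.77 and 9.70 (−1.47), and the kinase gene IKBKE fell in MDA-MB-231 from 8.86 and 9.69 to 7.59 and 7.18 (−1.89). Of 6 inhibitors of the pathway, SOCS1 rose in SUM149 (1.59), SOCS3 in MDA-MB-468 (1.11) and PTPN2 in BT549 (1.14), and PTPN6 fell in MDA-MB-231 (−1.04). Of 11 measured targets of interferon gamma, 1 fell and 0 rose in BT549, against 6.18% and 4.20% of all genes. The median there was −0.59, and changes ranged from −1.08 (IDO1, the gene called) to 0.86 (GBP3). In other lines, IDO1 rose in MDA-MB-157 (1.19), GBP4 rose in SUM149 (1.37) and GBP5 fell in MDA-MB-231 (−1.21).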

How the data were processed

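RNA of 5 TNBC lines with and without WHF was hybridised to 20 Illumina HumanHT-12 beadchips. The authors read the chips with BeadStudio and deposited bead signals as linear intensity, quantile-normalized in 1 table and without normalization in another, with a detection p-value per probe and array, also deposited. From the deposited intensities without normalization, log2 levels were computed here with limma 3.58.1 in R 4.3.3 (normexp background correction guided by detection p-values, quantile normalization, offset 16). Probes with a detection p under 0.05 on 2 or more arrays entered the tests. Of the deposited probes, 30112 had 1 annotated gene symbol, 8 several and 17199 none. Quantile normalization makes every array's distribution alike, so a shift of all genes cannot be seen. The number of arrays limits the precision.

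The response over the lines was fitted on line means of A and B with the line as a block, and responses within lines, differences between them and baseline in 1 fit of the 10 groups. P-values were adjusted by Benjamini-Hochberg over all tested probes, at 0.1, with more than 2-fold in single lines. Members and lists were chosen with earlier results of these data known. Genes given in full are, by rule, those with the deepest falls or highest rises per line, the largest moderated t per role, or the largest F. Others were chosen after their values were seen. The fits were tested on simulated data. Alternatives were the authors' normalization, no background correction, other filters, every probe, no fold threshold, a replicate block and leaving out arrays or lines.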

Additional observations from a re-analysis of the deposited data

Results flagged for a closer look

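Among the changes of a gene in the 5 lines, that of IFIT2 in MDA-MB-468 (0.22) lay far from the other lines, which were between −1.67 and −1.87. The limit used is one that chance passes in about 1 of 20 groups by its construction, and no chance rate was computed here. The 19 genes described in full, themselves chosen by their values, were all checked, and IFIT2 was the only one to pass the limit.

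For 13 of the 19 genes described in full, the response differed between lines by limma's F test, against 39.8% of all genes. These genes were chosen by their falls, rises or F values, so the count is no independent evidence. The F values were 28.8 for SAMD9L, 22.7 for TNFSF10, 13.8 for IFITM1, 11.8 for IFI44L, 11.1 for ISG20 and 9.01 for MX1. They were 5.53 for SAMD9, 5.46 for IFIT2, 5.08 for EPSTI1, 4.82 for IFIT1, 4.76 for RIGI, 3.58 for HERC6 and 3.54 for HERC5. TNFSF10 was called lower in MDA-MB-231 and SUM149 and higher in MDA-MB-468, ISG20 was called higher in SUM149 alone, and the other 11 were called lower in at least 1 line and higher in none.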

How the results depend on the processing

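By the probe used for each gene, no median and no called change of a named gene reversed its direction under these alternatives. Changes that were not called could change sign. That of TRIM21 in SUM149 was −0.26, but its WHF A level of 7.72 was above both untreated levels, 7.51 and 7.38. Where a probe was called, other probes of IFIT1 and SP110 in SUM149 had the opposite sign. So had the probes of IFI6 in BT549, with 1.21 by the probe used, not called, and −2.12 by the other. Probes differed in sign among uncalled changes too, as for ADAR in MDA-MB-231 (−0.17 by the probe used, 0.80 by another). Of the counts and medians recomputed, 266 stayed within 1.5 times or the replicate spread and 50 moved. Over the 5 lines, the 0 genes called lower became 1 when probes had to be detected on 10 arrays and 3 without MDA-MB-468. The median of −0.66 became −0.52 with the authors' normalized intensities or without background correction, −0.41 without BT549 and −0.81 without MDA-MB-468. With the authors' intensities or no background correction, genes called lower fell to 11 in MDA-MB-157 and 4 in SUM149, 0 were higher in SUM149, and medians were −0.27 in MDA-MB-231, −0.63 in MDA-MB-157, −0.13 in MDA-MB-468 and −0.30 in SUM149. Counting every probe gave 10 lower in MDA-MB-231 and 17 in SUM149. With no fold threshold, 13 were lower and 1 higher in MDA-MB-231, 2 higher in MDA-MB-468 and 17 lower in SUM149.

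Leaving out 1 array at a time gave 3 to 8 genes lower in MDA-MB-231 (medians −0.44 to −0.29), 29 to 41 in BT549 (−2.10 to −1.26; 0 to 1 higher), 7 to 13 in MDA-MB-157, 1 to 3 in MDA-MB-468 (−0.17 to −0.15; 0 to 1 higher) and 4 to 13 in SUM149 (−0.61 to −0.27; 0 to 1 higher), and 12 to 26 genes higher in untreated BT549 than in MDA-MB-157. A lone array was taken to vary like the other groups. Of 44 calls of a named gene in a line, 21 held under the 9 alternatives run for each: both other signal treatments, 2 filters, the block and leaving out each of the line's 4 arrays. Other probes were not among these.

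Paired deviations of same-lettered arrays correlated between 0.0388 and 0.242, over 0.1 in 3 of 5 lines. The study's methods pair treated and untreated cells within a preparation, which the main fit follows by line, but no source ties a letter to a preparation, so pairing by letter was not established. With line and letter as a replicate block, 34 genes were called lower over the lines. The share of all genes called lower by this fit was not computed, so the count has nothing to be set against. That fit takes 20 arrays as units where the main one takes 10 means, and leaves the spread between lines out of the error. The block moved no count within a line by over 1.5 times.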
